A study of Mus musculus with 14 samples.

Results

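The genes of the interferon regulatory factor (IRF) family were examined for binding by 7 transcription factors (TFs) during blood cell formation from mouse embryonic stem (ES) cells. The 8 members Irf1, Irf2, Irf3, Irf4, Irf5, Irf7, Irf8 and Irf9 were chosen by name, as 8 of 21784 protein-coding gene spans of the RefSeq annotation (build GRCm38). A binding site, or peak, was counted for a member when it overlapped the gene span extended by 20 kb on each side, or by 60 kb for Irf8, whose window holds no other coding gene even at this size. The windows covered 584.5 kb in all and held 185 of the 158488 peaks, or 127 of the 117293 regions obtained by joining overlapping peaks of any list.

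Binding was measured by chromatin immunoprecipitation with sequencing (ChIP-seq), and 14 lists of peaks, each 400 bp wide, were analysed. All cells came from 1 ES cell line of strain 129 carrying a Brachyury-GFP reporter, and no group was treated or genetically altered further. The stages were mesoderm (MES, Brachyury-GFP+ and FLK1-), hemangioblast (HB, Brachyury-GFP+ and FLK1+), hemogenic endothelium (HE, Brachyury-GFP+, Tie2+, Ckit+ and CD41-), hematopoietic progenitors (HP, CD41+) and macrophages (MAC, CD11b+, derived from the CD41+ cells). C/EBPβ was mapped at all 5 stages, PU.1 (encoded by Spi1) and RUNX1 in HP and MAC, GATA2 in HB and HP, GATA1 and GFI1B in HP, and ELK4 in MES. Every combination of factor and stage had 1 list, so that the spread between replicates is unknown and no test was made. The lists held from 72 peaks (MAC RUNX1) to 82866 peaks (MAC PU.1), and the threshold for a peak was chosen separately for each list, so that the number of peaks of different lists is no measure of the amount of binding. Peak lists carry no expression, and the identity of the sorted cells could not be checked against marker genes.

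IRF proteins share a DNA-binding domain that reads the interferon-stimulated response element (ISRE). Some members switch on interferon genes after a virus is sensed, others carry the signal from interferon receptors to target genes, and IRF4 and IRF8 bind together with PU.1 at mixed ETS and IRF sequences (the ETS-IRF composite element, EICE). In myeloid cells IRF8 is known for directing the formation of monocytes and dendritic cells, and PU.1 and C/EBPβ are leading TFs of macrophages.

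Selected regions are shown with their sequence, among them all 6 that were called in 4 or 5 lists, while several others with a call in HP are not shown. The sequences were read from the RefSeq genome (GRCm38, plus strand) and limited to the middle of each region, outside exons of coding transcripts. Capitals mark matches on either strand to the letters searched, in which N is any base. These were GAGGAAGT for PU.1 and TTGCNNAA for C/EBP. For the ISRE they were GAAA repeated after any 2 bases, and for the EICE the repeat began with GGAA instead. For RUNX proteins the letters were TGTGGTT, as read by the DNA-binding domain of RUNX1. For GATA proteins they were AGATAA, as read by GATA1 and GATA2. The letters of the ISRE and the EICE can overlap each other, and those of the EICE can overlap a PU.1 match. Of 32851 RefSeq promoter sequences of 300 bases, which is the length of most windows shown, 3.20% held the PU.1 letters, 10.8% C/EBP, 5.27% RUNX, 11.2% GATA, 3.44% ISRE and 2.72% EICE. Most windows shown are not promoters, and in sequences of 400 bp taken 2 kb from the MAC PU.1 peaks the shares were 2.81% for PU.1, 15.3% for C/EBP, 10.1% for RUNX, 20.6% for GATA, 5.44% for the ISRE and 4.11% for the EICE. The window upstream of Irf8 that was bound in 5 lists is given before the other regions of Irf8, and those of Irf2, Irf3, Irf1, Irf4 and Irf9 follow.
Irf8, 34.2 kb upstream, chr8:120702041-120702340: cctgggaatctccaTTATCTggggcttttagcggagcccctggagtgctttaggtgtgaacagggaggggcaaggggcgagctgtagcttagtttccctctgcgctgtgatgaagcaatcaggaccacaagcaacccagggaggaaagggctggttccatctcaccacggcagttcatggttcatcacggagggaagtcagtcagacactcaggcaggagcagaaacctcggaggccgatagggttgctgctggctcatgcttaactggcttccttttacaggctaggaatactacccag
Irf8, 50.1 kb upstream, chr8:120686137-120686436: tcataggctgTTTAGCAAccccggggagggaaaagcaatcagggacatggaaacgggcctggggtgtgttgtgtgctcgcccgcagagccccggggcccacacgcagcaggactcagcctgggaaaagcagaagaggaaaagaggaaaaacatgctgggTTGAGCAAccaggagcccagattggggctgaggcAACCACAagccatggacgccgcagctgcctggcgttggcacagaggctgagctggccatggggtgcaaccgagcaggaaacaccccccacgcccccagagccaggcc
Irf8, 56.5 kb downstream of the start, chr8:120792703-120793002: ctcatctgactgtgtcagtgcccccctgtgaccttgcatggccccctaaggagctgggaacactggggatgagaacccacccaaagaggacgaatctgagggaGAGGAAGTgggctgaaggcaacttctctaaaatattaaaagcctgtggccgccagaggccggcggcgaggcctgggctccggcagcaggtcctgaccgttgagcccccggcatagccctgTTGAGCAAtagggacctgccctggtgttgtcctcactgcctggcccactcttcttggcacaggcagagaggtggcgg
Irf2, 25.3 kb downstream of the start, chr8:46764881-46765180: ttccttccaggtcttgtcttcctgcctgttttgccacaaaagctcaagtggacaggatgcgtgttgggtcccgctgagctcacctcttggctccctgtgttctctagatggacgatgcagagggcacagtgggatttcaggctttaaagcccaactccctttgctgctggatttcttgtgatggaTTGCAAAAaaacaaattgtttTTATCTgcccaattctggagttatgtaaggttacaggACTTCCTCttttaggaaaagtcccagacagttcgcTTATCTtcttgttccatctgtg
Irf2, promoter, chr8:46739402-46739701: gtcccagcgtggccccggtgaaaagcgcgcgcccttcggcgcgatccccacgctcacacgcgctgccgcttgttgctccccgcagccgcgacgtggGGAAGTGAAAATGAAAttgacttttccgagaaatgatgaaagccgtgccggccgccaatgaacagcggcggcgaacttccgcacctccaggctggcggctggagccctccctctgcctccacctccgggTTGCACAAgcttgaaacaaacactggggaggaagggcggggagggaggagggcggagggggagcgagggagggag
Irf2, 49.6 kb downstream of the start, chr8:46789245-46789544: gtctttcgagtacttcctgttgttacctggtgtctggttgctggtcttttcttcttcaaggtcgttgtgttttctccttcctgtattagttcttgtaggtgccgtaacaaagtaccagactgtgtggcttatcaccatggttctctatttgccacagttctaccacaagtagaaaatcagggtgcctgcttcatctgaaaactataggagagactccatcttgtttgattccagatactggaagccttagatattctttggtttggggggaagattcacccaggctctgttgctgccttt
Irf3, upstream of the start, chr7:44997163-44997462: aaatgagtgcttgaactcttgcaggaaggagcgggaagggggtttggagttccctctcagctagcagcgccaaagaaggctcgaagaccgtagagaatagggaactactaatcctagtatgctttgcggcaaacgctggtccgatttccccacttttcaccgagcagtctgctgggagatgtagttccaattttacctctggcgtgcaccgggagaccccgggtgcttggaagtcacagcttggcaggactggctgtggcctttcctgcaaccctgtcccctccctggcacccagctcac
Irf1, 25.4 kb downstream of the start, chr11:53795280-53795579: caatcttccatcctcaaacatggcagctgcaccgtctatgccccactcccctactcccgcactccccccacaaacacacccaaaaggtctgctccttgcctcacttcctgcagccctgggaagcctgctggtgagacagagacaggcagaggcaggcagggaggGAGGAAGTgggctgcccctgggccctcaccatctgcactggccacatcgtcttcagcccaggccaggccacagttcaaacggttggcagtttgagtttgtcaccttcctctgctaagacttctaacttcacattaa
Irf4, 17.8 kb downstream of the start, chr13:30766982-30767249: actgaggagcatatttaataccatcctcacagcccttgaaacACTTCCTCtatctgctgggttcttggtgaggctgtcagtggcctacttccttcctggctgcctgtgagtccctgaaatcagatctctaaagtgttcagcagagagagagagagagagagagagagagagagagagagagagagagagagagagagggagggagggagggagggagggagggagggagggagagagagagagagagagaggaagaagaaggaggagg
Irf9, promoter, chr14:55603780-55603984: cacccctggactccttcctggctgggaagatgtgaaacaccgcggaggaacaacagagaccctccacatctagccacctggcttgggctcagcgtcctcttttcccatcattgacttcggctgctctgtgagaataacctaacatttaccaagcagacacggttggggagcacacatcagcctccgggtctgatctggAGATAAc

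The capitals in these windows were of the type read by a factor bound there in some regions and not in others. At Irf2, the window 25.3 kb into the gene held a C/EBP, a PU.1 and a pair of GATA matches, and C/EBPβ, PU.1 and GATA2 were all called there. The MAC PU.1 peak held the PU.1 letters, but the HP PU.1 peak held none of the letters searched. The Irf2 promoter held an EICE match that ran into an ISRE match (GGAAGTGAAA and GAAAATGAAA), followed by a C/EBP match. At Irf8, the region 50.1 kb upstream held 2 C/EBP matches and a RUNX match and was called for C/EBPβ, RUNX1 and PU.1, whereas the region 34.2 kb upstream, called in 3 C/EBPβ and 2 PU.1 lists, held GATA letters alone. The window of Irf2 at 49.6 kb held none of the letters given above, but outside it both C/EBPβ peaks of the region held C/EBP letters and both PU.1 peaks EICE and GATA letters. The Irf3 window, which held none either, lies upstream of the Irf3 start, within the part of the region called for PU.1 and C/EBPβ in MAC, and does not reach the ELK4 peak or most of the RUNX1 peak. The windows of Irf1 and Irf4 each held a PU.1 match, and the Irf9 promoter held a GATA match next to the start site. Such a match describes the letters and is no proof of a site.

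Most peaks at the IRF genes came from the MAC lists of PU.1 and C/EBPβ, 156 of 185 (84.3%, exact 95% interval 78.3 to 89.2%), which is near the 87.3% of the whole series. Of the 112 combinations of member and list, 28 had at least 1 peak, and 16 of these came from the MAC lists of PU.1 and C/EBPβ. In MAC, all 8 members had peaks of PU.1, with 98 peaks in all, and all 8 had peaks of C/EBPβ, with 58 peaks. Most coding genes were bound by this measure as well, since 79.1% of coding genes had a MAC PU.1 peak and 73.8% a MAC C/EBPβ peak within 20 kb, and 85% and 82.3% within 60 kb.

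In HP, PU.1 was found at 4 of the 8 members, namely Irf1, Irf2, Irf4 and Irf8, with 17 peaks, where 38.2% of coding genes had such a peak within 20 kb and 56.6% within 60 kb. C/EBPβ in HP was found at Irf2 and Irf8, that is 2 of 8 members with 6 peaks, where the share of coding genes was 14.8% within 20 kb and 25.9% within 60 kb. Of the earlier C/EBPβ lists, MES had 1 peak, at Irf8, where 6.47% of coding genes had a peak within 20 kb and 11.9% within 60 kb. No member had a C/EBPβ peak in HB or HE, for which the shares of coding genes were 4.24% and 0.684%.

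The remaining factors left few sites. RUNX1 was found at Irf3 in HP (7.79% of coding genes within 20 kb) and at Irf8 in MAC (0.477% within 20 kb and 0.987% within 60 kb). GATA2 in HP was found at Irf2 and Irf9 (3.36% of coding genes), and ELK4 in MES at Irf3 (4.65%). GFI1B and GATA1 in HP and GATA2 in HB had no peak at any member, where 11.7%, 1.75% and 0.363% of coding genes had one. With 8 members, counts of 0, 1 or 2 cannot be told apart from most of these shares.

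**Figure D1:**
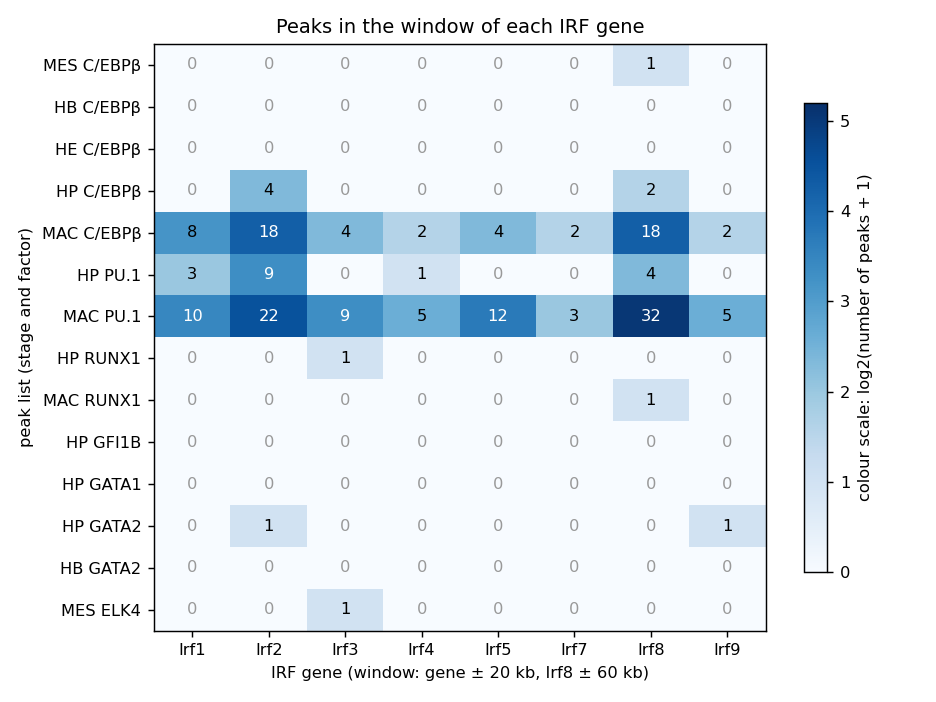
Number of peaks in the window of each IRF gene (columns) in each of the 14 lists (rows, stage and factor), with the number written in each cell and colour on a log2 scale. The MAC rows of PU.1 and C/EBPβ are filled for all 8 genes, HP PU.1 for 4 genes and HP C/EBPβ for Irf2 and Irf8.

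Since the windows differ in length, members were compared with each other by density, as peaks per 100 kb of window. For PU.1 in MAC, Irf8 had the highest density (22.8), followed by Irf5 (21.5), Irf1 (20.7), Irf3 (19.9), Irf2 (14.9), Irf9 (10.9), Irf4 (8.66) and Irf7 (6.93). The median coding gene had 5.24 peaks per 100 kb in windows of 20 kb and 5.42 in windows of 60 kb. All 8 members were therefore above the median. Irf7, Irf4, Irf9 and Irf2 lay below the 90th percentile, with 59.7%, 68.6%, 78.2% and 89.9% of coding genes less dense. Irf8, Irf5, Irf1 and Irf3 exceeded 99.7%, 97.6%, 97.0% and 96.5% of coding genes. The value of Irf8 rests on its wider flank. In a window of 20 kb on each side, as used for the others, Irf8 had 12 peaks or 19.9 per 100 kb, below Irf5 and Irf1, and exceeded 96.4% of coding genes. With 3 to 32 peaks per member and no replicate, the order of neighbours in this series is not established.

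For C/EBPβ in MAC, Irf1 had the highest density (16.5 peaks per 100 kb), followed by Irf8 (12.8) and Irf2 (12.2), which exceeded 99.3%, 99.4% and 96.1% of coding genes. Irf3 had 8.85, Irf5 7.18, Irf7 4.62, Irf9 4.34 and Irf4 3.46, against a median of 3.16 for coding genes in windows of 20 kb. Irf4, which is best known from lymphocytes, was thus close to the median coding gene, with 52.2% of genes less dense. For PU.1 in HP, Irf1 (6.2) and Irf2 (6.09) stood highest and exceeded 98.8% and 98.7% of coding genes, and Irf8 (2.85) exceeded 94.3%. With 20 kb on each side, Irf8 had 11.6 peaks per 100 kb of C/EBPβ in MAC, or 7 peaks, and 3.31 of PU.1 in HP, or 2 peaks, which exceeded 95.1% and 92.6% of coding genes.

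**Figure D2:**
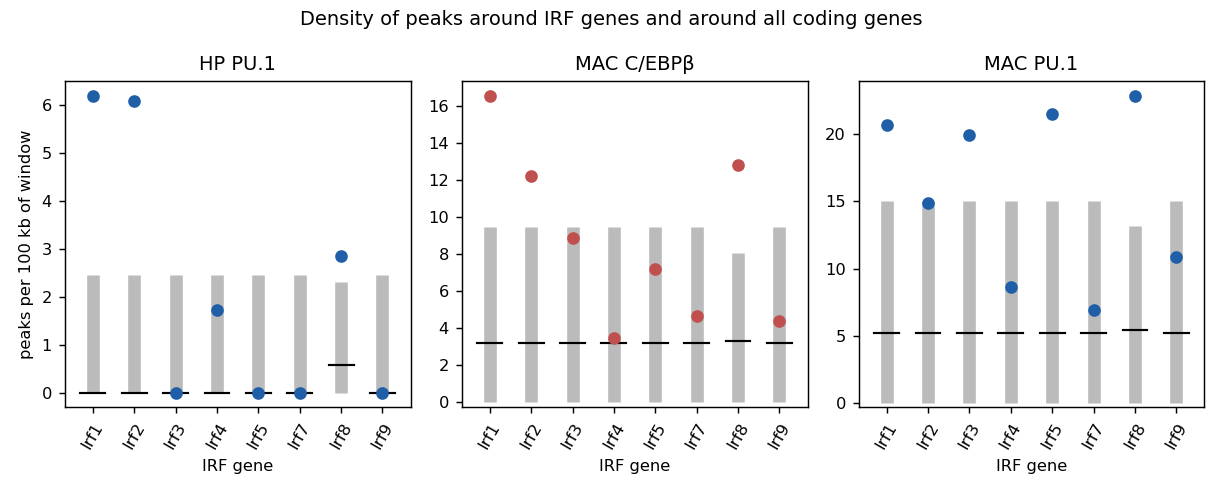
Peaks per 100 kb of window for each IRF gene (points) in HP PU.1, MAC C/EBPβ and MAC PU.1, with the 10th to 90th percentile (grey bar) and the median (black line) of all coding genes with the same flank. Irf1, Irf2 and Irf8 lie above the grey bar for HP PU.1 and MAC C/EBPβ, and Irf1, Irf3, Irf5 and Irf8 for MAC PU.1.

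Peaks near a transcription start site (TSS) were counted next, as peaks whose centre lay within 2 kb of a TSS of the member. PU.1 in MAC was found at the promoter of 7 of 8 members (52.4% of coding genes). The exception was Irf8, whose nearest MAC PU.1 peak lay 4779 bp into the gene and 2498 bp from another annotated TSS of Irf8. C/EBPβ in MAC was found at the promoters of 6 members, Irf1, Irf2, Irf3, Irf4, Irf5 and Irf8 (39.1% of coding genes). At Irf8, the C/EBPβ peak was centred 499 bp upstream of the start. Within 2 kb in MAC, the promoter of Irf8 thus carried C/EBPβ without PU.1, whereas those of Irf7 and Irf9 carried PU.1 without C/EBPβ. At Irf8 and Irf7 this rests on the 2 kb limit, as the missing factor had a peak 2498 bp and 2420 bp from a TSS.

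Before the MAC stage, promoter peaks were confined to 3 of the 8 members in the lists analysed. Irf2 had a promoter peak of PU.1 (10.5% of coding genes) and of C/EBPβ (4.31%) in HP. Irf3 had one of RUNX1 in HP (3.34%) and of ELK4 in MES (1.94%), and Irf9 one of GATA2 in HP (0.804%). Of the 98 MAC PU.1 peaks, 45 were centred in introns of annotated genes, 32 between genes and 21 in exons, noncoding genes included, and of the 58 MAC C/EBPβ peaks 28, 22 and 8.

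In its window of 60 kb on each side, Irf8 had more peaks than any other member, whereas within 20 kb it had 12 of PU.1 and 7 of C/EBPβ in MAC, fewer than the 22 and 18 of Irf2. The 60 kb window, chr8:120676358-120816694, held 32 peaks of PU.1 and 18 of C/EBPβ in MAC, 4 of PU.1 and 2 of C/EBPβ in HP, and 1 each of C/EBPβ in MES and RUNX1 in MAC. C/EBPβ in MAC was found chiefly before the gene, with 12 peaks upstream, 2 within the gene and 4 downstream. PU.1 in MAC was spread evenly, with 13 upstream, 6 within and 13 downstream of the gene. The 39 joined regions included 11 bound by both factors in MAC.

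The region 34.2 kb upstream of Irf8 (chr8:120701954-120702442, between genes) was the only region of the family called for C/EBPβ in MES, and it was called again for C/EBPβ in HP and MAC and for PU.1 in HP and MAC. In HB and HE, no C/EBPβ peak was called there. The study reports no enrichment by quantitative PCR for C/EBPβ in MES and HB, or for RUNX1 in MAC. These samples were sequenced all the same. The region 50.1 kb upstream (chr8:120686068-120686536, in an intron of the noncoding gene Gm39265) was called for C/EBPβ in HP and MAC, and for PU.1 and RUNX1 in MAC. It was the site of 1 of the 72 RUNX1 peaks of MAC. For both regions the nearest coding TSS was that of Cox4i1, a subunit gene of the respiratory chain, at 17947 to 33922 bp from the peak centres, so that assignment to Irf8 rests on the 60 kb window.

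Downstream of Irf8, the region 56.5 kb from the start (chr8:120792605-120793127, in an exon of the noncoding gene Gm33199) was called for PU.1 in HP and MAC and for C/EBPβ in MAC. PU.1 was also found in both HP and MAC 11.6 kb into the gene (chr8:120747706-120748126, intron) and 27.1 kb from the start (chr8:120763272-120763681, between genes). All 4 PU.1 sites of HP were thus found again in MAC, together with 28 sites that had no HP peak. This is near the whole lists, where 97.0% of HP PU.1 peaks overlapped a MAC PU.1 peak and 12.8% of MAC PU.1 peaks an HP one.

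**Figure D3:**
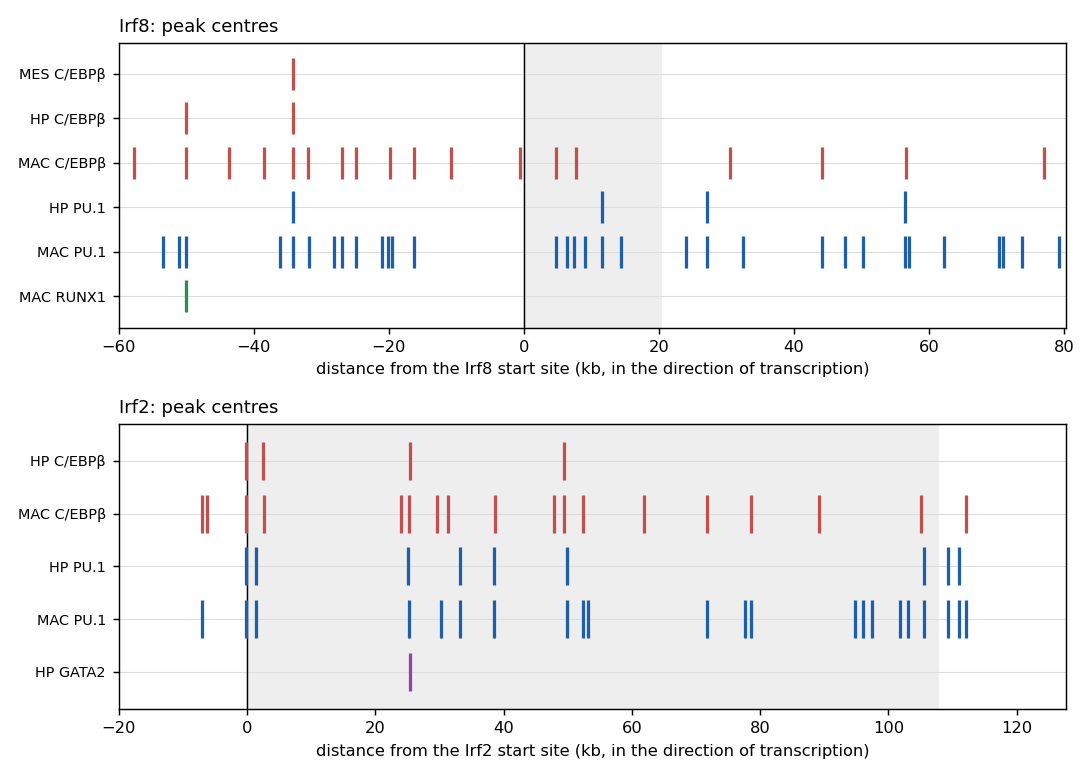
Centres of the peaks around Irf8 (upper panel) and Irf2 (lower panel) by distance from the start site in kb, with 1 row for each list that has a peak, the start site as a black line and the gene span in grey. At Irf8 the MES and HP peaks of C/EBPβ lie upstream, and at Irf2 the sites of HP lie along the gene and recur in the MAC rows.

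Irf1, an activator that is itself induced by interferon, and Irf2, which competes with it for the same DNA sites, both had PU.1 sites in HP. At Irf2 (window chr8:46719745-46867458), 9 peaks of PU.1 were called in HP and 22 in MAC, with 4 and 18 of C/EBPβ. The 9 PU.1 peaks of HP exceeded the number at almost every coding gene, in a window that is longer than most because the gene spans 107714 bp. Calls from 4 lists met at the Irf2 promoter (chr8:46739313-46739779), which was bound by PU.1 and C/EBPβ in HP and again in MAC.

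Within Irf2, the intronic region 25.3 kb from the start (chr8:46764667-46765397) was called in 5 lists, for PU.1 and C/EBPβ in both HP and MAC and for GATA2 in HP. A further intronic region at 49.6 kb (chr8:46788994-46789792) was called for PU.1 and C/EBPβ in both stages, and the one at 38.6 kb (chr8:46778105-46778567) for PU.1 in both stages and C/EBPβ in MAC. The latter lay 760 to 823 bp from the start of another annotated transcript of Irf2. Of the 31 regions of Irf2, 10 were called in some list other than the MAC lists of PU.1 and C/EBPβ. It was 5 of 39 at Irf8, with flanks of 60 kb instead of 20 kb, and 17279 of 117293 in the whole series. Of those at Irf8, the regions 34.2 and 50.1 kb upstream and 56.5 kb from the start lay outside flanks of 20 kb. The difference between Irf2 and Irf8 was not tested.

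At Irf1 (window chr11:53750014-53798374), HP had 3 PU.1 peaks and no C/EBPβ peak, and MAC had 10 PU.1 and 8 C/EBPβ peaks. The HP sites lay in the gene at 2.7 kb (chr11:53772556-53772960, intron) and beyond it at 24.2 kb and 25.4 kb, both in an intron of the noncoding gene Gm12216. The latter region (chr11:53795207-53795643) also carried C/EBPβ in MAC. In MAC, PU.1 formed a series of 6 peaks within 5 kb of the Irf1 start, at 0.8 and 0.1 kb upstream and at 0.7, 1.6, 2.7 and 4.9 kb downstream, of which the site at 2.7 kb was present in HP.

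Irf9 encodes the DNA-binding subunit of ISGF3, the complex that carries the type I interferon signal to target genes. Its window (chr14:55583985-55630030) held 5 PU.1 and 2 C/EBPβ peaks in MAC and 1 GATA2 peak in HP. The GATA2 peak was centred 6 bp upstream of the Irf9 start and overlapped a MAC PU.1 peak centred 49 bp into the gene (joined region chr14:55603780-55604234). There are 5 other coding genes that reach into this window, and both C/EBPβ peaks and 3 of the 5 PU.1 peaks were nearest to the start of Psme2, Rnf31 or Emc9.

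Irf3 and Irf7 encode the factors that are activated by virus sensors and switch on type I interferon genes. Irf3 (window chr7:44977648-45022848) had 9 PU.1 and 4 C/EBPβ peaks in MAC and none of either in HP. Its start lies close to that of the neighbour Bcl2l12, a BCL2-related gene, and the region across both starts (chr7:44997039-44998060) was called in 4 lists, PU.1 and C/EBPβ in MAC, RUNX1 in HP and ELK4 in MES. The ELK4 peak was centred 19 bp into Irf3 and the RUNX1 peak 40 bp upstream of it, 29 bp from the Bcl2l12 start. Only 3 of the 9 PU.1 peaks and 1 of the 4 C/EBPβ peaks were nearest to Irf3, and the rest to Prmt1, Bcl2l12, Scaf1 or Rras.

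Irf7 (window chr7:141243183-141286499, minus strand) had the smallest number of PU.1 peaks, 3 in MAC, together with 2 of C/EBPβ, and no peak in any other list. A PU.1 and a C/EBPβ peak overlapped 2.5 kb upstream (chr7:141268720-141269319), and a PU.1 peak lay 1.5 kb into the gene. The second C/EBPβ peak, 12.7 kb upstream, was nearest to the secretin gene Sct.

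Irf5, which acts downstream of Toll-like receptors on inflammatory cytokine genes and is known from macrophages, had 12 PU.1 and 4 C/EBPβ peaks in MAC and no peak in any list of an earlier stage (window chr6:29506130-29561869). Of the 12 PU.1 peaks, 7 lay within the gene. PU.1 and C/EBPβ peaks overlapped 1.9 kb upstream (chr6:29523894-29524649) and 3.0 kb into the gene (chr6:29528860-29529402, intron), and both regions held EICE letters. At 1.9 kb upstream these letters lay in the C/EBPβ peak but outside the PU.1 peak, while at 3.0 kb both peaks held them. Irf5 and Irf1 had similar densities of PU.1 in MAC, but Irf5 had 0 of its 12 sites in HP (exact 95% interval 0 to 26.5%) and Irf1 had 3 of 10 (6.67 to 65.2%). Both intervals include the 12.8% of the whole MAC PU.1 list.

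Irf4, the relative of Irf8 that also binds with PU.1, had 5 PU.1 and 2 C/EBPβ peaks in MAC and 1 PU.1 peak in HP (window chr13:30729233-30786981). The HP site lay 17.8 kb from the start, just past the 3′ end of the gene (chr13:30766846-30767249), and was present in MAC. At the Irf4 start (chr13:30749043-30749555) PU.1 and C/EBPβ peaks overlapped in MAC. Compared with Irf8, Irf4 had a lower density of PU.1 in MAC, with 8.66 peaks per 100 kb. Irf8 had 22.8 with flanks of 60 kb and 19.9 with the 20 kb used for Irf4.

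**Figure D4:**
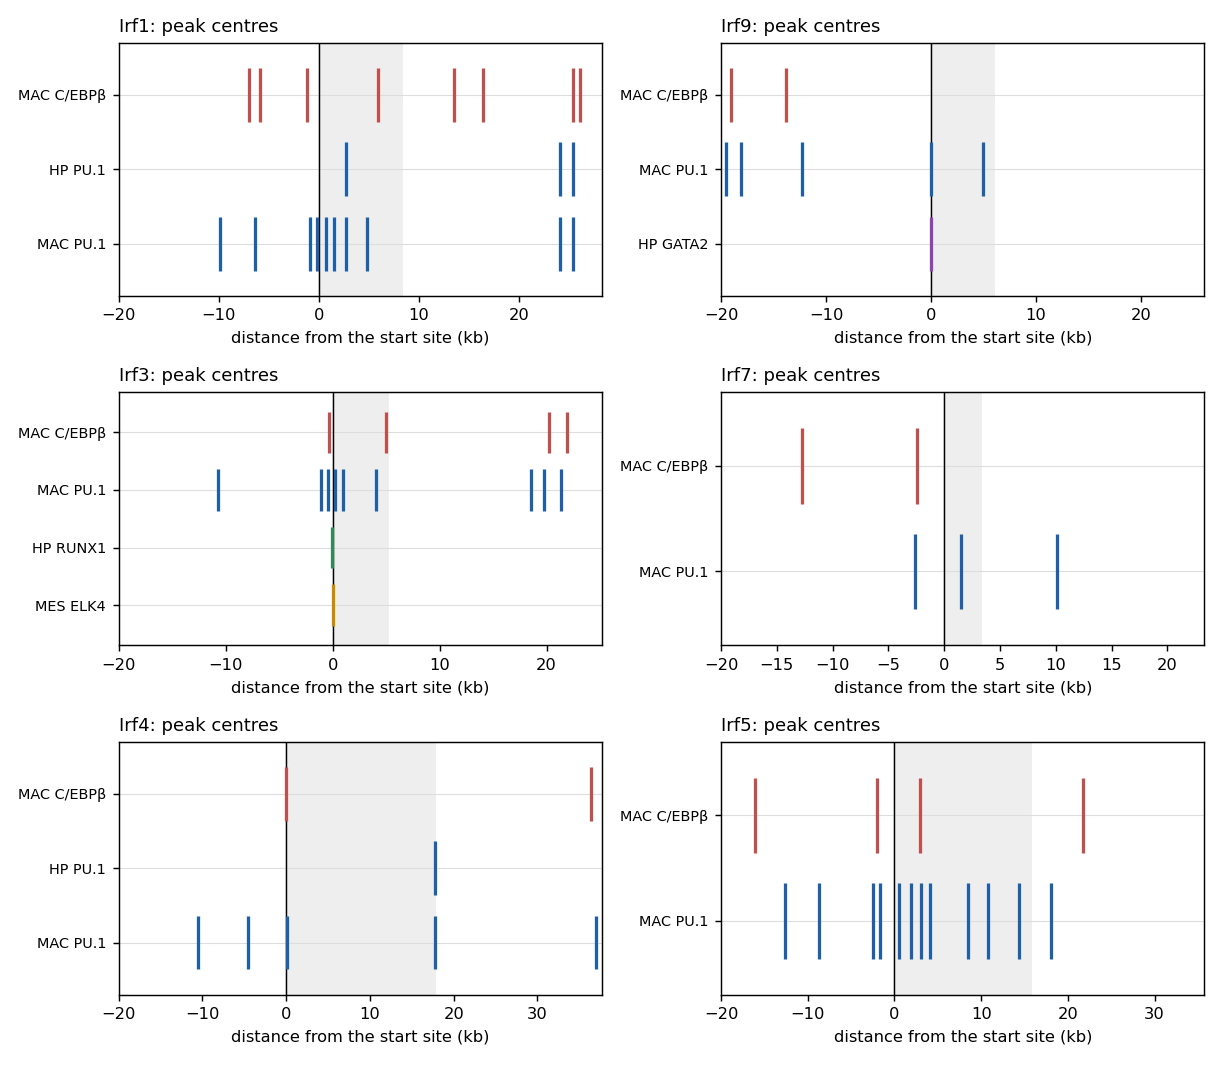
Centres of the peaks around Irf1, Irf9, Irf3, Irf7, Irf4 and Irf5 by distance from the start site in kb, in the direction of transcription, with 1 row for each list that has a peak, the start site as a black line and the gene span in grey. Irf5 and Irf7 have rows from MAC alone, while Irf1 and Irf4 have PU.1 sites in HP that recur in MAC.

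To ask whether sites seen in HP were kept in MAC, overlaps of at least 1 bp were counted. All 17 PU.1 peaks of HP at the IRF genes overlapped a MAC PU.1 peak (100%, exact Clopper-Pearson 95% interval 80.5 to 100%), as did 97.0% of all HP PU.1 peaks. The centres of the paired peaks lay 1 to 93 bp apart, with a median of 16 bp. All 6 C/EBPβ peaks of HP overlapped a MAC C/EBPβ peak (54.1 to 100%), as did 91.4% of all HP C/EBPβ peaks, with centres 8 to 37 bp apart. The intervals cover counting error only, and both include the share of the whole list.

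Read in the other direction, 17 of the 98 MAC PU.1 peaks already had an HP peak (17.3%, interval 10.4 to 26.3%, against 12.8% of the whole list), and 6 of the 58 MAC C/EBPβ peaks (10.3%, 3.89 to 21.2%, against 4.48%). Among members, this share for PU.1 was 9 of 22 at Irf2 (40.9%, 20.7 to 63.6%), 3 of 10 at Irf1 (6.67 to 65.2%), 1 of 5 at Irf4 and 4 of 32 at Irf8 (12.5%, 3.51 to 29.0%). It was 0 at Irf3, Irf5, Irf7 and Irf9, which together account for 29 peaks. The intervals cover counting error only, and the peaks of a gene are not replicates. Without replicate lists, the members cannot be ordered by this share.

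PU.1 and C/EBPβ shared sites in MAC. A PU.1 peak overlapped 28 of the 58 C/EBPβ peaks (48.3%, 35.0 to 61.8%, against 42.5% of the whole list), and conversely 28 of the 98 PU.1 peaks overlapped C/EBPβ (28.6%, 19.9 to 38.6%, against 28.5%). The centres of overlapping peaks lay 10 to 390 bp apart, with a median of 65 bp, a wider spacing than between the same factor in HP and MAC. By member, PU.1 was called at 11 of 18 C/EBPβ peaks of Irf8, 9 of 18 at Irf2, 2 of 8 at Irf1, 2 of 4 at both Irf3 and Irf5, 1 of 2 at both Irf4 and Irf7, and 0 of 2 at Irf9.

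In HP, PU.1 was called at 4 of the 6 C/EBPβ peaks (66.7%, 22.3 to 95.7%), whereas 14.9% of all HP C/EBPβ peaks did. These 4 peaks were at the Irf2 promoter, at 25.3 and 49.6 kb in Irf2 and 34.2 kb upstream of Irf8, and their centres lay 34, 229, 399 and 71 bp from those of PU.1, in this order. As peaks are 400 bp wide, the peaks at 49.6 kb in Irf2 overlapped by 1 bp. With an overlap of at least 200 bp, a requirement chosen after seeing the data, 2 of the 6 peaks remained (33.3%, 4.33 to 77.7%), against 12.8% of all HP C/EBPβ peaks, which lies within that interval. With windows of 60 kb for all members, 4 of 11 HP C/EBPβ peaks overlapped PU.1 by at least 1 bp (36.4%). The peaks come from 2 genes, and no test was made.

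Counted as joined regions, 87 of the 127 regions at the IRF genes were called in 1 list, 31 in 2 lists and 9 in 3 or more. The share called in 2 or more lists was 31.5%, against 28.0% of all regions. MAC PU.1 alone accounted for 58 regions and MAC C/EBPβ alone for 29. Every region called at an earlier stage or for another factor, 21 in all, also held a MAC peak of PU.1 or C/EBPβ (100%, 83.9 to 100%), as did 83.9% of the 17279 such regions of the whole series.

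The sequence of the peaks was compared with the whole lists by the letters given above, searched on both strands. PU.1 letters were found in 25 of the 98 MAC PU.1 peaks at the IRF genes (25.5%, 17.2 to 35.3%), against 24.4% of the whole list and 2.81% of windows of equal length 2 kb away. In HP, 7 of 17 PU.1 peaks held them (41.2%, 18.4 to 67.1%), against 42.1% of the list. C/EBP letters were found in 26 of the 58 MAC C/EBPβ peaks (44.8%, 31.7 to 58.5%), against 41.9% of the list and 15.7% of the windows 2 kb away. The peaks at the IRF genes thus held the letters of their factor about as often as the rest of each list.

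The sequences read by IRF proteins themselves were less frequent. EICE letters were found in 10 of the 98 MAC PU.1 peaks (10.2%, 5.00 to 18.0%), against 8.01% of the list and 4.11% of the windows 2 kb away. Of these 10, Irf2 had 6, and Irf5 and Irf8 had 2 each. ISRE letters were found in 5 of the 98 peaks (5.10%, 1.68 to 11.5%), against 5.79% of the list and 5.44% of the windows 2 kb away, with 3 at Irf2 and 1 each at Irf4 and Irf8. Among the 11 RefSeq promoters of the 8 members, that of Irf2 was the only one with ISRE or EICE letters, starting 241 and 247 bp upstream of the start, and it also held C/EBP letters. GATA letters were found in the promoters of Irf9 and Irf7, and PU.1 and RUNX letters in none of the 11.

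**Figure D5:**
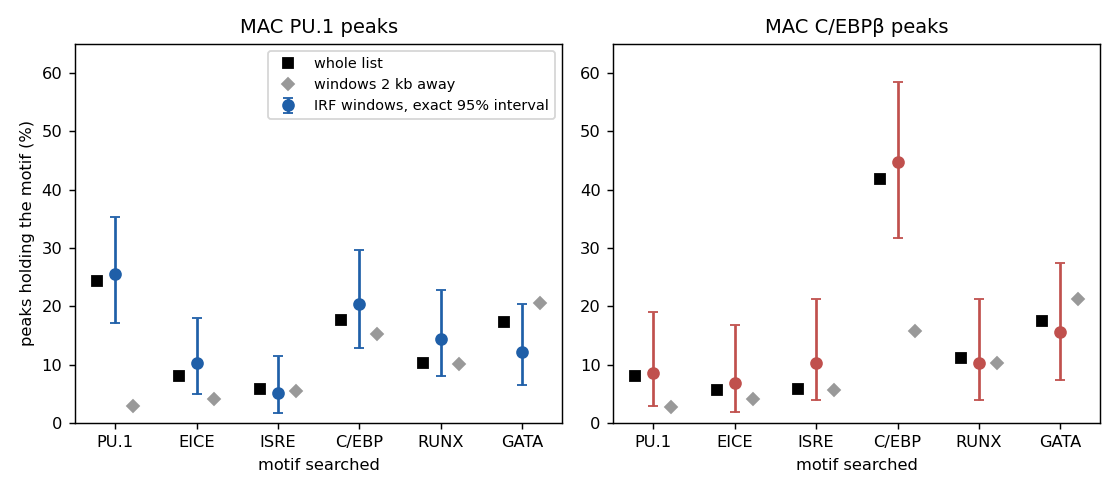
Percentage of peaks that hold the letters of 6 motifs in MAC PU.1 (left) and MAC C/EBPβ (right), for peaks at the IRF genes (coloured points with exact 95% intervals), all peaks of the list (black squares) and windows of equal length 2 kb away (grey diamonds). For PU.1 letters in PU.1 peaks and C/EBP letters in C/EBPβ peaks, the points and squares lie together, above the diamonds.

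Other genes of the interferon pathway were counted in the same way, within 20 kb, from 4 lists of genes by role. These counts stand beside 79.1% of coding genes with PU.1 and 73.8% with C/EBPβ in MAC, and 38.2% and 14.8% in HP, within the same distance. Of 8 genes for receptors and signal transducers, which carry the interferon signal to the nucleus, all 8 had PU.1 and C/EBPβ peaks in MAC, 6 had PU.1 in HP and 4 had C/EBPβ in HP (Ifnar1, Ifngr2, Jak2 and Stat2). Of 9 genes for sensors of foreign nucleic acid and the proteins that activate IRF3 and IRF7, all 9 had both factors in MAC, 8 had PU.1 in HP and 2 (Myd88 and Cgas) had C/EBPβ in HP. Of 8 genes for DNA-binding and cofactor partners of IRF proteins, all 8 had both factors in MAC, 5 had PU.1 in HP and 3 had C/EBPβ in HP, Spi1 itself among both groups.

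Of 14 interferon-induced genes, 12 were matched to the annotation as coding genes, and 11 of these had peaks of both factors in MAC (79.1% of coding genes had PU.1 and 73.8% C/EBPβ). In HP, 6 had PU.1 and 3 had C/EBPβ (Isg15, Ifit1 and Gbp2), where 38.2% and 14.8% of coding genes had them. The exception in MAC was Oas1a, which had no peak in any list. Counted in windows of 20 kb for all, the IRF members had PU.1 in HP in 4 of 8 and C/EBPβ in HP in 1 of 8. Median numbers of MAC PU.1 peaks within 20 kb were 9.5 for the 8 IRF members, 9.5 for the receptor list, 6 for sensors, 6.5 for partners and 4.5 for interferon-induced genes, beside 4 for all coding genes.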

How the data were processed

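Transcription factor binding was measured by ChIP-seq in 14 samples, 1 per factor and stage, grouped by their titles. According to the study's methods and the submitters' processing notes, the authors trimmed reads with CutAdapt, aligned them to mm10 (GRCm38) with Bowtie, kept unique positions, removed duplicates with Picard, called peaks with MACS against the input of the same stage at a threshold set by eye for each list, and refined them with polyPeak. No tool versions are named in the sources used here. The deposited values are peak positions in bp (start and end), with no score or depth, so that no stricter threshold could be applied. Some libraries combined sequencing runs, and HE chromatin received carrier mRNA and histone.

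Peaks were counted in the windows of the 8 members and, as a background, of 21784 coding genes (promoters: 21774 genes with a coding transcript), and shares carry exact Clopper-Pearson 95% intervals. Members, gene lists, regions (most lists, or bound outside MAC PU.1 and C/EBPβ) and motifs were chosen with earlier results of these data known. Other windows, overlaps, TSS distances and assignments were tried. The scripts (Python 3.11.15, NumPy 2.4.6, SciPy 1.17.1, pandas 2.3.3, Matplotlib 3.10.9) were tested on simulated data. Some genes of the pathway are not reported here.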

Additional observations from a re-analysis of the deposited data

How the results depend on the processing

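Of 56 recomputed values of 11 results, 46 kept their size within 1.5 times or within the counting interval. The number of members with C/EBPβ in HP, 2, was 1 with windows of 20 kb or 5 kb for all members or when peaks went to the nearest coding TSS, since the Irf8 sites then fell away, and 6 with windows of 60 kb for all. The number of MAC PU.1 peaks, 98, was 155 with 60 kb and 56 with 5 kb for all members, and that of MAC C/EBPβ, 58, was 105 and 28. With the first part of each list up to its middle in file order, an alternative chosen after seeing the data, these numbers were 57 and 35. The share of HP C/EBPβ peaks on HP PU.1 peaks, 66.7%, was 36.4% with 60 kb for all members, 33.3% with an overlap of at least 200 bp, 50.0% in the first part of each list and 3 of 4 peaks under the other alternatives, all chosen for this share after seeing the data. All HP sites of PU.1 and C/EBPβ overlapped MAC sites of the same factor under each alternative tried. No paired analysis was possible because each group holds 1 list. Without replicates, read depth or peak scores, neither the absence of a peak nor a difference between stages could be separated from differences between libraries.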

Other observations

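The peaks of the deposited lists are not ordered by position, and no source used here states the meaning of their order. In the MAC lists, the share of peaks that hold the letters of their own factor changed along the file. From the first 10% to the last 10% of the file it went from 58.9% to 36.8% for C/EBP letters in C/EBPβ peaks and from 38.7% to 18.3% for PU.1 letters in PU.1 peaks. In that order, the C/EBPβ peak 50.1 kb upstream of Irf8 was number 27 of 55471, the PU.1 peak 56.5 kb downstream of the Irf8 start was number 138 of 82866, and the PU.1 peak 1.4 kb into Irf2 was number 470. The C/EBPβ peak of the region 1.9 kb upstream of Irf5 was number 518, and that 34.2 kb upstream of Irf8 number 721. These were picked for their early places after the values were seen, and the other peaks were spread over the files. The 98 PU.1 peaks of MAC at the IRF genes ran from number 138 to number 82182, with their median at 42.0% of the list, and 19 lay in the first 10% and 5 in the last 10%. The 58 C/EBPβ peaks of MAC ran from number 27 to number 53009, with their median at 38.8% of the list, and 9 lay in the first 10% and 3 in the last 10%.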
